A study of Mus musculus with 48 samples.

Results

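Transcript levels in frontal cortex were compared between 8 Per3 5/5 knock-in mice and 8 wild-type (WT) mice, all of which had been kept awake for 12 h. The members are the 16 frontal cortex arrays of these 2 groups, taken from the labels, of 48 arrays in the series. In Per3 5/5 mice, exon 18 of mouse Per3 was replaced in both copies by human PER3 exon 18 with 5 repeats of a coding stretch. The gene was targeted in embryonic stem cells of the Bruce4 line, from a congenic C57BL/6 strain, and the human exon was brought into place by a cross with mice that express Cre in all tissues (PGK promoter, ROSA26 locus). Cre was then bred out of both lines. The WT mice descended from the same conditional animals, so both groups shared a C57BL/6 background with a small contribution from the stem cells. The labels give the treatment as sleep displacement, and the methods describe sleep deprivation in mixed-genotype groups. No mouse that had slept was measured, and the sexes of the mice are not given in the sources used here. Each array held the RNA of 1 mouse, and the spread behind the p-values holds differences between slides and scan days as well as between mice.

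PER3 is one of the period proteins of the circadian clock. In this clock, the transcription factors CLOCK (or its relative NPAS2) and BMAL1 drive the Per and Cry genes, whose proteins enter the nucleus and repress their own transcription, while casein kinases mark PER proteins for degradation. In the cortex, wakefulness is known to raise immediate early genes, chaperones and some clock genes, and human carriers of the longer PER3 repeat have been studied for their response to sleep loss. The repeat region lies in a part of the protein with many potential phosphorylation sites.

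The samples had the transcripts of cortex. Slc17a7, the vesicular glutamate transporter of cortical neurons, lay between 426 and 996 on the 16 arrays, where a level is the signal as a percent of the 75th percentile of its array. Its median in the hypothalamus of the same mice was 3.68. Neurod6, a transcription factor of cortical excitatory neurons, lay between 168 and 494 in cortex and had a median of 4.04 in hypothalamus. The hypothalamic peptide transcripts Hcrt and Oxt reached at most 36.0 and 36.1 in cortex against hypothalamic medians of 9370 and 8990.

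The groups differed in more than genotype. Scan day 1 held 4 Per3 5/5 arrays, day 2 held 5 WT arrays, and day 3 held 4 Per3 5/5 and 3 WT arrays, and 0 slides held both genotypes. The Per3 5/5 arrays were dimmer, with a 75th percentile of 908 ± 139 intensity units against 1270 ± 180 in WT (mean ± SD, n = 8 each, exact permutation test, two-sided p = 0.00109). Per3 5/5 replicates 7 and 8, both on slide 2, stood apart, with a spike-in slope of 0.922 to 0.926 against 0.966 to 1.03 on the other arrays. The Y-linked transcripts Ddx3y and Eif2s3y were measured in both groups, and their brightest probes differed by -0.15 and -0.26 and were not called. Between 28677 and 32165 probes per array were well above background and 0 spots were saturated. Between day 3 and day 1 within the Per3 5/5 mice, limma called 1813 of 29714 probes. The day 3 arrays there include those of slide 2. Between day 3 and day 2 within the WT mice it called 31 probes. Limma's estimate of the correlation between cortex arrays of the same slide was 0.262. Values with scan day as a block, or from day 3 alone, are therefore given beside the main values, and the part of scan day, brightness and slide in the results was not tested beyond these values.

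Per3 itself was measured higher in the knock-in mice. Its probe read 13.2, 14.1 and 18.7 (lowest, median and highest of 8) in Per3 5/5 and 7.03, 9.28 and 11.4 in WT. Every Per3 5/5 array lay above every WT array. The difference was 0.69 ± 0.14 on the log2 scale (± SE) with limma's adjusted p = 0.00546, and an exact permutation test of the 8 against 8 values gave p = 0.000155, the smallest that the design allows. With scan day as a block it was 0.54 and no longer passed (limma's adjusted p = 0.0839). On day 3 the 4 Per3 5/5 arrays read 14.3, 13.8, 18.1 and 13.4 and the 3 WT arrays 9.36, 9.20 and 8.92, a difference of 0.69 at the smallest p this subset allows (exact permutation p = 0.0571). In Per3 4/4 mice, which carry the human exon with 4 repeats, the cortical difference from the same WT arrays was 0.41 (limma's adjusted p = 0.0382). The position of the probe relative to the exchanged exon was not analysed here, so the value is no check of the allele.

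Counted at the brightest probe of each gene, Bhlhe41 was the one clock gene whose difference passed limma both without and with scan day as a block. Bhlhe41 encodes DEC2, a repressor that binds the same E-box letters as CLOCK and BMAL1 and is known for a human variant linked to short sleep. Its level was 13.5, 15.3 and 18.1 in Per3 5/5 and 9.24, 11.7 and 13.0 in WT, with no overlap. The difference was 0.43 ± 0.08 (log2 ± SE, limma's adjusted p = 0.00386) without the block and 0.47 with it (limma's adjusted p = 0.0375). Of the 25 core clock genes, measured with 1 probe each, 5 were called higher and 0 lower, where 7.11% of all 15398 genes were called higher and 4.49% lower. These counts depend on the choice of probe. The Cry1 probe that was brighter over the cortex arrays differed by 0.05 and was not called, while its other probe, described below, was called lower at -1.10. With scan day as a block 1 was higher and 0 lower, where the shares over all genes were 0.338% and 0.344%. Without the slide 2 arrays 7 were higher and 2 lower, where 14.5% of all genes were higher and 11% lower.

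The other called clock genes were a transcriptional activator and members of the repressing arm; Npas2 and the brightest probe of Cry2 fall outside the naming rule and were named after their values were seen. Npas2, the activator related to CLOCK, read 15.3, 16.8 and 17.5 in Per3 5/5 and 10.4, 13.4 and 15.6 in WT, a difference of 0.35 (limma's adjusted p = 0.0299). Of the 8 Per3 5/5 arrays, 7 lay above every WT array. The Npas2 difference was 0.33 with the block (limma's adjusted p = 0.137) and 0.38 on day 3. After quantile normalization it was 0.25 (limma's adjusted p = 0.0853), and it was called in none of these 3 settings. Per1, a period gene that is also induced by activity and glucocorticoids, read 171, 192 and 224 against 134, 159 and 180, a difference of 0.28 (limma's adjusted p = 0.0304) that was 0.15 with the block and 0.02 on day 3. The brightest probe of Cry2 differed by 0.26 (limma's adjusted p = 0.0374), by 0.14 with the block and by 0.08 on day 3. The median of the 25 genes lay 0.06 above the median of all genes, and 0.00 above it without the slide 2 arrays.

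The promoters of Per3, Bhlhe41 and Per1 are shown because the E-box CACGTG, the sequence that CLOCK and BMAL1 bind, sets them apart in their letters. Each is the RefSeq reference (GRCm38.p6) from 250 bases before to 50 after the start of the gene, 5′ to 3′ on the strand of the gene, with CACGTG in capitals. Per3 lies at chr4:151044616-151044915 on the minus strand, Bhlhe41 at chr6:145865371-145865670 on the minus strand and Per1 at chr11:69098699-69098998 on the plus strand.
Per3: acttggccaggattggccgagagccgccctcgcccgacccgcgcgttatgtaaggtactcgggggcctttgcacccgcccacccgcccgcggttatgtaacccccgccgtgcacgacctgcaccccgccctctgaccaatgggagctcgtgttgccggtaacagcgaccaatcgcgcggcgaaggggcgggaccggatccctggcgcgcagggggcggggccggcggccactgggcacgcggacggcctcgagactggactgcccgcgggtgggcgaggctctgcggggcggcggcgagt
Bhlhe41: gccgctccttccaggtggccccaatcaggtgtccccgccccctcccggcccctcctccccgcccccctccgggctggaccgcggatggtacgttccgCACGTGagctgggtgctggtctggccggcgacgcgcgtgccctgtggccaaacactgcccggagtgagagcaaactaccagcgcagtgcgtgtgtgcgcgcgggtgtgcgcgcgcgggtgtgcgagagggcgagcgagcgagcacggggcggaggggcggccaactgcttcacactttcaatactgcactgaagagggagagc
Per1: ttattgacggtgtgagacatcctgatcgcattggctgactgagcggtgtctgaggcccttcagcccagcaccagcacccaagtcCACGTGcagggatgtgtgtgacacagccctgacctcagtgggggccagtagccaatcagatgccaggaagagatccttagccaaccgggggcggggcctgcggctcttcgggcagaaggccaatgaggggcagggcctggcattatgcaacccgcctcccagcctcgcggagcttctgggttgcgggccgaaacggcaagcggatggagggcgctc
The Bhlhe41 and Per1 windows each held 1 CACGTG, which reads the same on both strands. The Per3 window shown, and those of Cry2 and Npas2, held none, which says only that these letters are not in those windows. Of the 29 windows of clock list genes 6 held the motif, and of all 32851 windows 7.15% did. A second start of Per1 had a window without it.

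Across the transcriptome, more transcripts were called higher than lower in Per3 5/5 cortex. Of 29714 probes tested, limma called 3671 (12.4%), of which 2509 (8.44% of the probes) were higher and 1162 (3.91%) lower in Per3 5/5. With scan day as a block it called 293 (0.986%), and 246 probes were called with the same sign in both, 169 higher and 77 lower. All 8 Per3 5/5 arrays lay above all 8 WT arrays at 223 probes (0.75%) and below them at 117 (0.394%). Without the slide 2 arrays limma called 7570 probes, 4703 of them higher. On day 3 alone limma called 1 probe, that of Ccl21a, and 5144 probes had an unadjusted p under 0.05.

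The share of higher calls moved with the scaling and the level of the probe. The median difference over all genes was 0.02 with arrays scaled to their 75th percentile, -0.09 when centred on the median and 0.08 after normexp background correction. Higher probes made up 68.3% of the calls with arrays scaled to their 75th percentile, 19.2% when centred on the median, 46.9% after quantile normalization and 84.8% after normexp background correction. Over the probes sorted by level into 5 equal bins, the median difference was 0.19 in the dimmest bin, 0.14 in the next and -0.01 in the brightest. After quantile normalization these medians were 0.00, 0.01 and -0.01. Of the called genes that the naming rule gave, Zc3h4, Egr3, Sgk1, Lsm14a, Zfp251, Grik3, Htr7, Pcdhga7, Nos1, Gli1, Folr1, Hcrt, Oxt, Aldoa, Cox6a1 and Kif5a, all described in other paragraphs, were not called after quantile normalization. Among 5711 genes with several tested probes, the median difference was -0.01 over the brightest probes and 0.11 over the dimmest. The brightest and the dimmest probe were both called in 187 of these genes, with the same sign in 165, and only 1 of them was called in 501 (brightest) and 753 genes (dimmest).

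**Figure D1:**
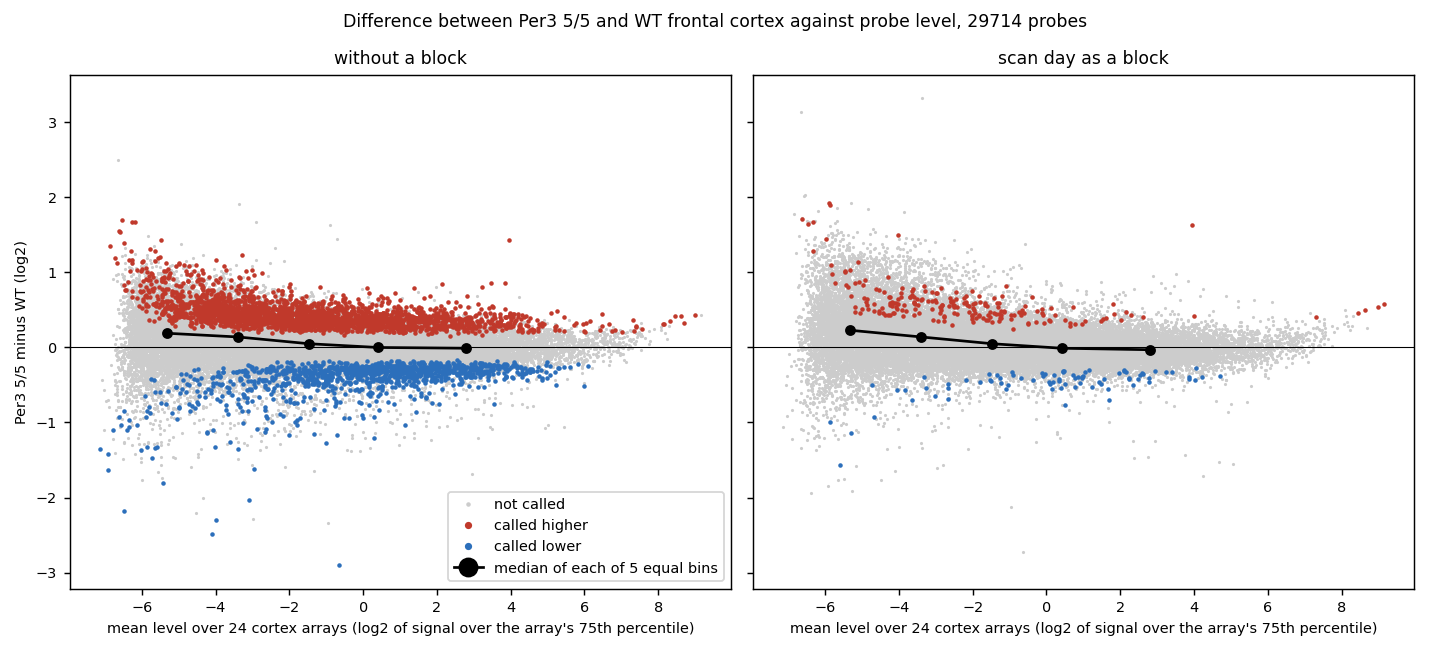
Log2 difference of Per3 5/5 minus WT (y axis) against the mean log2 level over the 24 cortex arrays (x axis), 1 point per probe, without a block (left) and with scan day as a block (right), with calls coloured. The black line, the median of each of 5 equal bins of probes, runs from 0.19 at the dimmest to -0.01 at the brightest probes on the left and from 0.23 to -0.03 on the right.

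The 12 genes with the largest difference upward, among those called both without and with the scan day block, included genes of the clock, ion channels, mitochondria, cilia and protein turnover. Their differences, which the rule selected and which are therefore given as a description, ran from 0.68 to 0.91. Of the 12, 8 had no overlap between the groups. All 12 lay on the same side on day 3 alone, whose arrays are among those that chose them.

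Ift172, a protein of the transport trains inside cilia, had the largest difference. It read 4.69, 5.79 and 7.65 in Per3 5/5 and 1.93, 3.30 and 4.04 in WT, a difference of 0.91 (0.74 with the block), with no overlap. Pkd2, the cation channel polycystin 2 of primary cilia, read 9.33, 12.8 and 16.5 against 6.67, 7.76 and 9.75, and 7 of the 8 Per3 5/5 arrays lay above every WT array. A brighter probe of Pkd2 differed by -0.14 and was not called, and the 2 other probes of Ift172 differed by 0.29 and 0.25, the second of which was called.

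Cacna1a encodes the pore of the P/Q-type calcium channel, which triggers transmitter release at most fast synapses. Its probe read 10.6, 12.6 and 15.2 in Per3 5/5 and 5.08, 7.18 and 10.3 in WT, a difference of 0.84 (0.82 with the block and on day 3). The groups did not overlap, and its other probe was also called, with a difference of 0.62. Rhot2, a mitochondrial GTPase that couples mitochondria to motor proteins, read 25, 31.9 and 35.1 against 12.9, 17.0 and 23.6, again with no overlap. The difference of 0.81 in Rhot2 was not seen at its brighter probe, which differed by 0.15 and was not called.

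Cry2 and Csnk1d belong to the clock. The dimmer probe of Cry2, a core repressor, read 5.43, 7.0 and 8.54 in Per3 5/5 and 3.16, 4.40 and 4.70 in WT, a difference of 0.72 (0.60 with the block), with no overlap. One probe of Csnk1d, the casein kinase that phosphorylates PER proteins, read 20.1, 31.4 and 37.8 against 16.2, 17.5 and 19.7, a difference of 0.68. All Per3 5/5 arrays lay above all WT arrays, and the Per3 5/5 arrays of day 3 lay 0.70 below those of day 1 (a log2 difference of -0.70, limma's adjusted p = 0.0207). Of the 3 other probes of Csnk1d, 1 was called at 0.46, and the brightest differed by 0.01 and was not called.

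Fcho1 encodes a protein that starts clathrin-coated pits. It read 339, 415 and 503 in Per3 5/5 and 222, 262 and 314 in WT, a difference of 0.68 (0.58 with the block), with no overlap, and its other probe was called too at 1.04. Vill, a villin-like protein of the actin-binding family, read 17.9, 21.1 and 29.6 against 11.1, 13.6 and 16.2. Its groups did not overlap, and its other probe was called at 0.59.

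Huwe1, a large ubiquitin ligase, read 8.50, 9.18 and 16 in Per3 5/5 and 4.54, 6.30 and 7.80 in WT, with no overlap. The 4 other Huwe1 probes differed by -0.18 to 0.26 and none of the 4 was called by limma. Tnrc6b, a scaffold of microRNA silencing, read 4.96, 6.33 and 9.28 against 2.85, 3.85 and 6.79. These groups overlapped, with 3 of 8 Per3 5/5 arrays above every WT array, and 1 of its 3 other probes was called, at 0.59. Zc3h4, a zinc finger protein that curbs non-coding transcription, and Mroh1, a HEAT-repeat protein, had differences of 0.72 and 0.77, and their brighter probes differed by -0.25 and 0.22 and were not called.

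The 12 genes with the largest difference downward included the clock repressor Cry1, vesicle and autophagy proteins and regulators of transcription. Their differences, also selected by the rule, ran from -1.10 to -0.49, and 5 of the 12 had no overlap. All 12 lay on the same side on day 3 alone, whose arrays are among those that chose them.

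Cry1, the partner of Cry2 in the repressing arm of the clock, read 2.42, 4.55 and 8.17 in Per3 5/5 and 8.21, 9.56 and 13.0 in WT. Every Per3 5/5 array lay below every WT array, with a difference of -1.10 (-0.57 with the block). The 4 Per3 5/5 arrays of day 3 read 5.68, 7.06, 7.31 and 8.17, above those of day 1, with a difference between the days of 1.22 (limma's adjusted p = 0.00401). A second Cry1 probe read medians of 8.45 and 8.82, differed by 0.05 and was not called.

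Gnb4, a beta subunit of heterotrimeric G proteins, and Ccnh, the cyclin of the CDK-activating kinase in the transcription factor TFIIH, had differences that changed little with scan day as a block. Gnb4 read 31.2, 41.3 and 46.9 in Per3 5/5 and 47.7, 57.4 and 69.0 in WT, a difference of -0.53 (-0.55 with the block). Ccnh read 126, 154 and 173 against 177, 221 and 252, a difference of -0.53 that was -0.53 with the block and -0.54 on day 3. Neither gene overlapped between the groups, while the 2 other Ccnh probes, at -0.33 and -0.28, and the other Gnb4 probe, at 0.12, were not called.

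Atg4c, a protease that processes the ATG8 proteins of autophagy, read 194, 253 and 316 in Per3 5/5 and 316, 382 and 417 in WT. All 8 Per3 5/5 arrays lay below the WT arrays, with a difference of -0.55, but a dimmer Atg4c probe was called in the other direction at 0.25. Snx24, a sorting nexin of the endosome, read 17.3, 24.2 and 37.5 against 37.8, 40.4 and 49.2, with no overlap. Its second probe differed by -0.01 and was not called, and its Per3 5/5 arrays of day 3 lay 0.71 above those of day 1 (limma's adjusted p = 0.0256).

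Prss23, a secreted serine protease, read 235, 284 and 330 in Per3 5/5 and 316, 444 and 582 in WT, a difference of -0.67 (-0.69 with the block). One WT array, replicate 3, lay among the Per3 5/5 arrays. Dpp9, a cytosolic dipeptidyl peptidase, read 83.9, 113 and 160 against 154, 175 and 236, a difference of -0.65. The remaining differences were -0.85 in Pwwp3b, -0.56 in the zinc finger gene Zfp677, -0.53 in Casz1, a zinc finger transcription factor, and -0.49 in Pcnx4.

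Crhbp encodes the binding protein that sequesters corticotropin-releasing hormone, and in cortex it marks interneurons. It read 60.2, 116 and 170 in Per3 5/5 and 128, 159 and 198 in WT, a difference of -0.51 (-0.77 with the block and -1.14 on day 3). The groups overlapped, with 5 of 8 Per3 5/5 arrays below every WT array. The lowest values, 60.2 and 74.4, were those of the slide 2 arrays, and without them the difference was -0.27 and was not called (limma's adjusted p = 0.121). Of the 24 genes it was the one whose call was lost without these arrays.

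**Figure D2:**
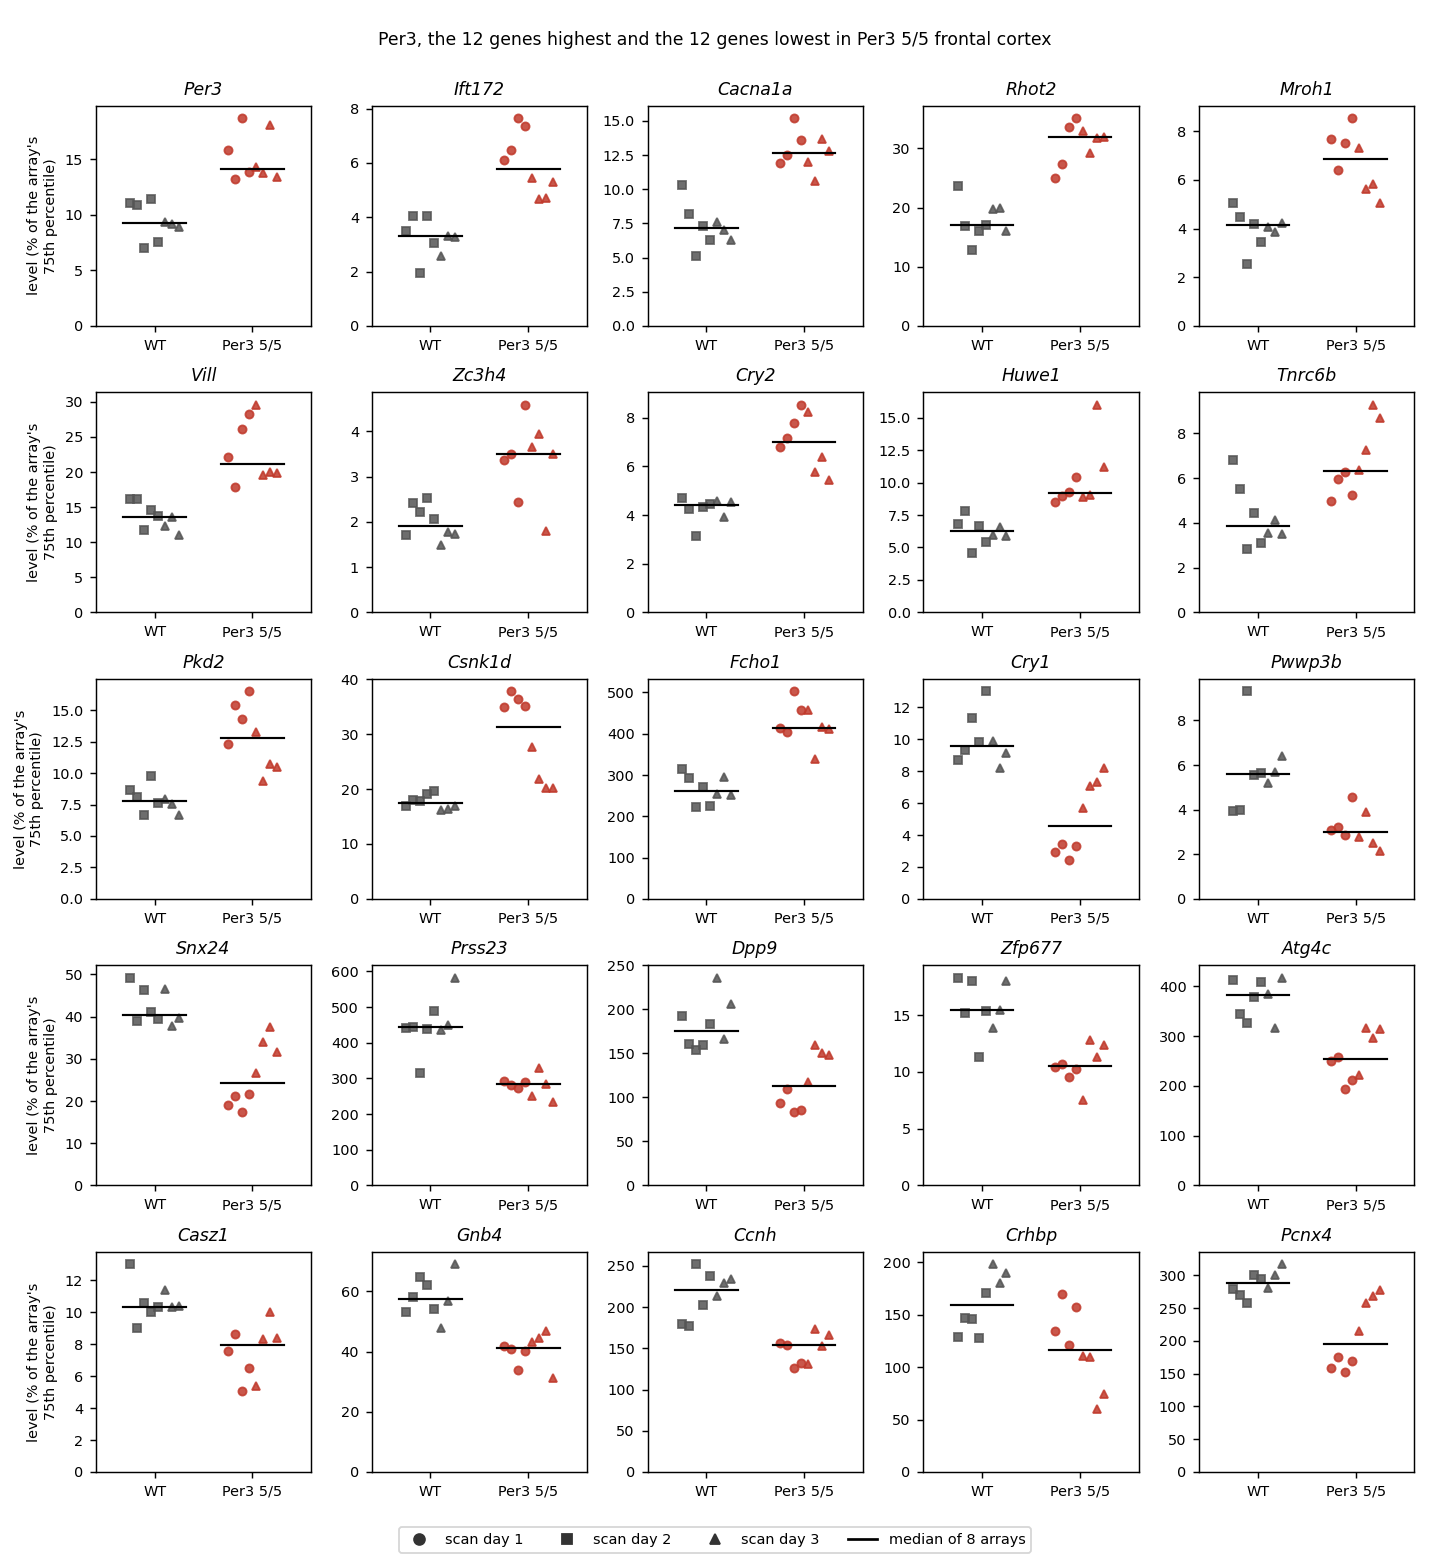
Level (percent of the 75th percentile of the array, linear axes from 0) of Per3 and of the 12 genes with the largest differences in each direction, 1 point per array by genotype, with the scan day as symbol and the median of 8 arrays as a line. Per3 5/5 and WT points do not overlap in Per3, in 8 of the genes that were higher and in 5 of those that were lower, and in Cry1 the day 3 triangles of Per3 5/5 lie above its day 1 circles.

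The same 24 genes were compared in samples that shared mice or WT arrays with these groups. In the hypothalamus of the same mice, 10 of the 12 higher and 10 of the 12 lower genes were called with the same sign. Over all probes there, 10.3% were called higher and 8.55% lower. Blocking on scan day, limma called 5 of the 24 there with the same sign. Among all 30735 probes tested in hypothalamus it then called 644, with 298 higher and 346 lower. The cortex and hypothalamus arrays of each mouse shared a slide and a scan day. Both tissues thus had the same split of slides and days between the genotypes, whose part in these counts was not tested further. The 24 genes were chosen on the cortex of these mice, and the counts are a description only. In Per3 4/4 cortex against the same WT arrays limma called 13.4% of probes higher and 9.14% lower, and the values of the 24 genes there rest on the WT arrays that chose them. Crhbp differed by 0.01 in Per3 4/4 cortex and by 0.07 in Per3 5/5 hypothalamus, and neither value was called. Tnrc6b differed by 0.24 in Per3 4/4 cortex and was not called there (limma's adjusted p = 0.328). With Per3 4/4 cortex in place of WT, limma called 0 probes, with 4656 at an unadjusted p under 0.05. For 0 of the 24 genes did limma call the difference between the tissues.

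Gene groups were counted with 1 probe per gene, the brightest one tested, and their medians are given relative to the median of all genes, 0.02. Because whole tissue was measured, fewer cells of a type and less RNA per cell cannot be told apart. With scan day as a block, between 0 and 2 genes of a list were called in either direction, so the counts below are those without the block unless stated. Without the slide 2 arrays 14.5% of all genes were higher and 11% lower, and the counts of a list without these arrays stand beside those shares.

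Ion channel subunits were called in 1 direction with all 16 arrays. Of 31 voltage-gated sodium and calcium channel subunits 5 were higher and 0 lower (16.1% against 7.11% of all genes). Of 76 potassium channel subunits 8 were higher (10.5%) and 0 lower. Their medians lay 0.12 and 0.13 above that of all genes, 0.06 and 0.08 with the block, and 0.03 and 0.09 after quantile normalization. Cacnb3, a beta subunit that brings calcium channels to the membrane, read 827, 969 and 1280 in Per3 5/5 and 550, 676 and 744 in WT, with no overlap and a difference of 0.58 (limma's adjusted p = 0.00539, 0.0748 with the block). The other called calcium channel subunits were Cacna1a, whose brighter probe is counted here, and Cacng6, Cacna1h and Cacna1c, named after their values were seen. Cacna1c, the pore of the L-type channel, was the one called with the block as well (0.34, limma's adjusted p = 0.0428). Without the slide 2 arrays, 22 potassium channel subunits were higher and 8 lower, and 9 sodium and calcium channel subunits were higher and 0 lower.

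Among the potassium channels, Kcna2, a Shaker-type channel of axons, read 86.3, 111 and 202 in Per3 5/5 and 55, 78.3 and 107 in WT, a difference of 0.57 (limma's adjusted p = 0.0208). The groups overlapped, with 4 Per3 5/5 arrays above every WT array. Kcnh3, an EAG-family channel of the forebrain, read 98.6, 168 and 205 against 95.8, 101 and 112, a difference of 0.56 (limma's adjusted p = 0.015) that was 0.39 with the block and was not called there. Kcnj6, an inward rectifier opened by G proteins and named after its values were seen, was called in both fits, at 0.38 and 0.36.

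Postsynaptic proteins and glutamate receptors were also called in 1 direction with all 16 arrays, and in both without those of slide 2. Of 37 postsynaptic scaffolds and plasticity kinases 7 were higher and 0 lower (18.9%), and of 24 glutamate receptor genes 4 were higher and 0 lower (16.7%). Camk4, a calcium/calmodulin kinase of the nucleus, read 444, 537 and 578 in Per3 5/5 and 319, 370 and 416 in WT, with no overlap and a difference of 0.51 (limma's adjusted p = 0.00289, 0.0521 with the block). Dlg4, which encodes the scaffold PSD-95, read 70.7, 91.1 and 109 against 51.4, 60.7 and 76.7, a difference of 0.52 (limma's adjusted p = 0.019). Grik3, a kainate receptor subunit, differed by 0.75 at levels of 1.01 to 5.21, and Grin2c, an NMDA receptor subunit, by 0.42. With the block limma called 0 genes of either list, with 11 and 5 at an unadjusted p under 0.05, while without the slide 2 arrays 10 genes of the scaffold list were higher and 7 lower, and 7 of the receptor list were higher and 3 lower.

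At the presynaptic side, 5 of 42 synaptic vesicle and release genes were higher and 0 lower, among them Syngr1, a vesicle membrane protein, at 0.46 and Bsn, a scaffold of the active zone, at 0.43. Bsn read 1480, 2270 and 2660 in Per3 5/5 and 1450, 1540 and 1860 in WT, and 7 of the 8 Per3 5/5 arrays lay above every WT array. Of 17 GABA receptor genes 1 was higher (5.88%, against 7.11% of all genes), Gabbr2, the partner subunit of the GABA-B receptor, at 0.44. Of 42 receptors for monoamines, histamine and acetylcholine 3 were higher and 1 lower, with Htr7, a serotonin receptor, at 0.39 and Chrnb2, a nicotinic subunit, at -0.30. Of 17 adenosine genes 2 were higher, Slc29a2, a nucleoside transporter, at 0.28 and Adora1, the receptor through which adenosine dampens neurons, at 0.24. The Adora1 difference was 0.08 with the block and was not called there.

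Clustered protocadherins, which give neurons their surface identity, were called in both directions, 1 of 29 higher and 3 lower. Pcdhb3 read 35.4, 42.0 and 52.4 in Per3 5/5 and 49.3, 57.7 and 70.5 in WT, a difference of -0.48 (limma's adjusted p = 0.00309, 0.0363 with the block), and Pcdhga7 differed by 0.33. These neighbouring genes are similar in sequence, and sharing of signal between their probes was not tested. Of 39 kinesins and dyneins 3 were higher (7.69%, close to 7.11% of all genes), among them Kif5a, a motor of axonal transport, at 0.32. After quantile normalization Kif5a differed by 0.07 and was not called (limma's adjusted p = 0.381). Of 11 neurotrophin genes 1 was higher, Gfra2, a receptor for a neurotrophic factor, at 0.49.

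**Figure D3:**
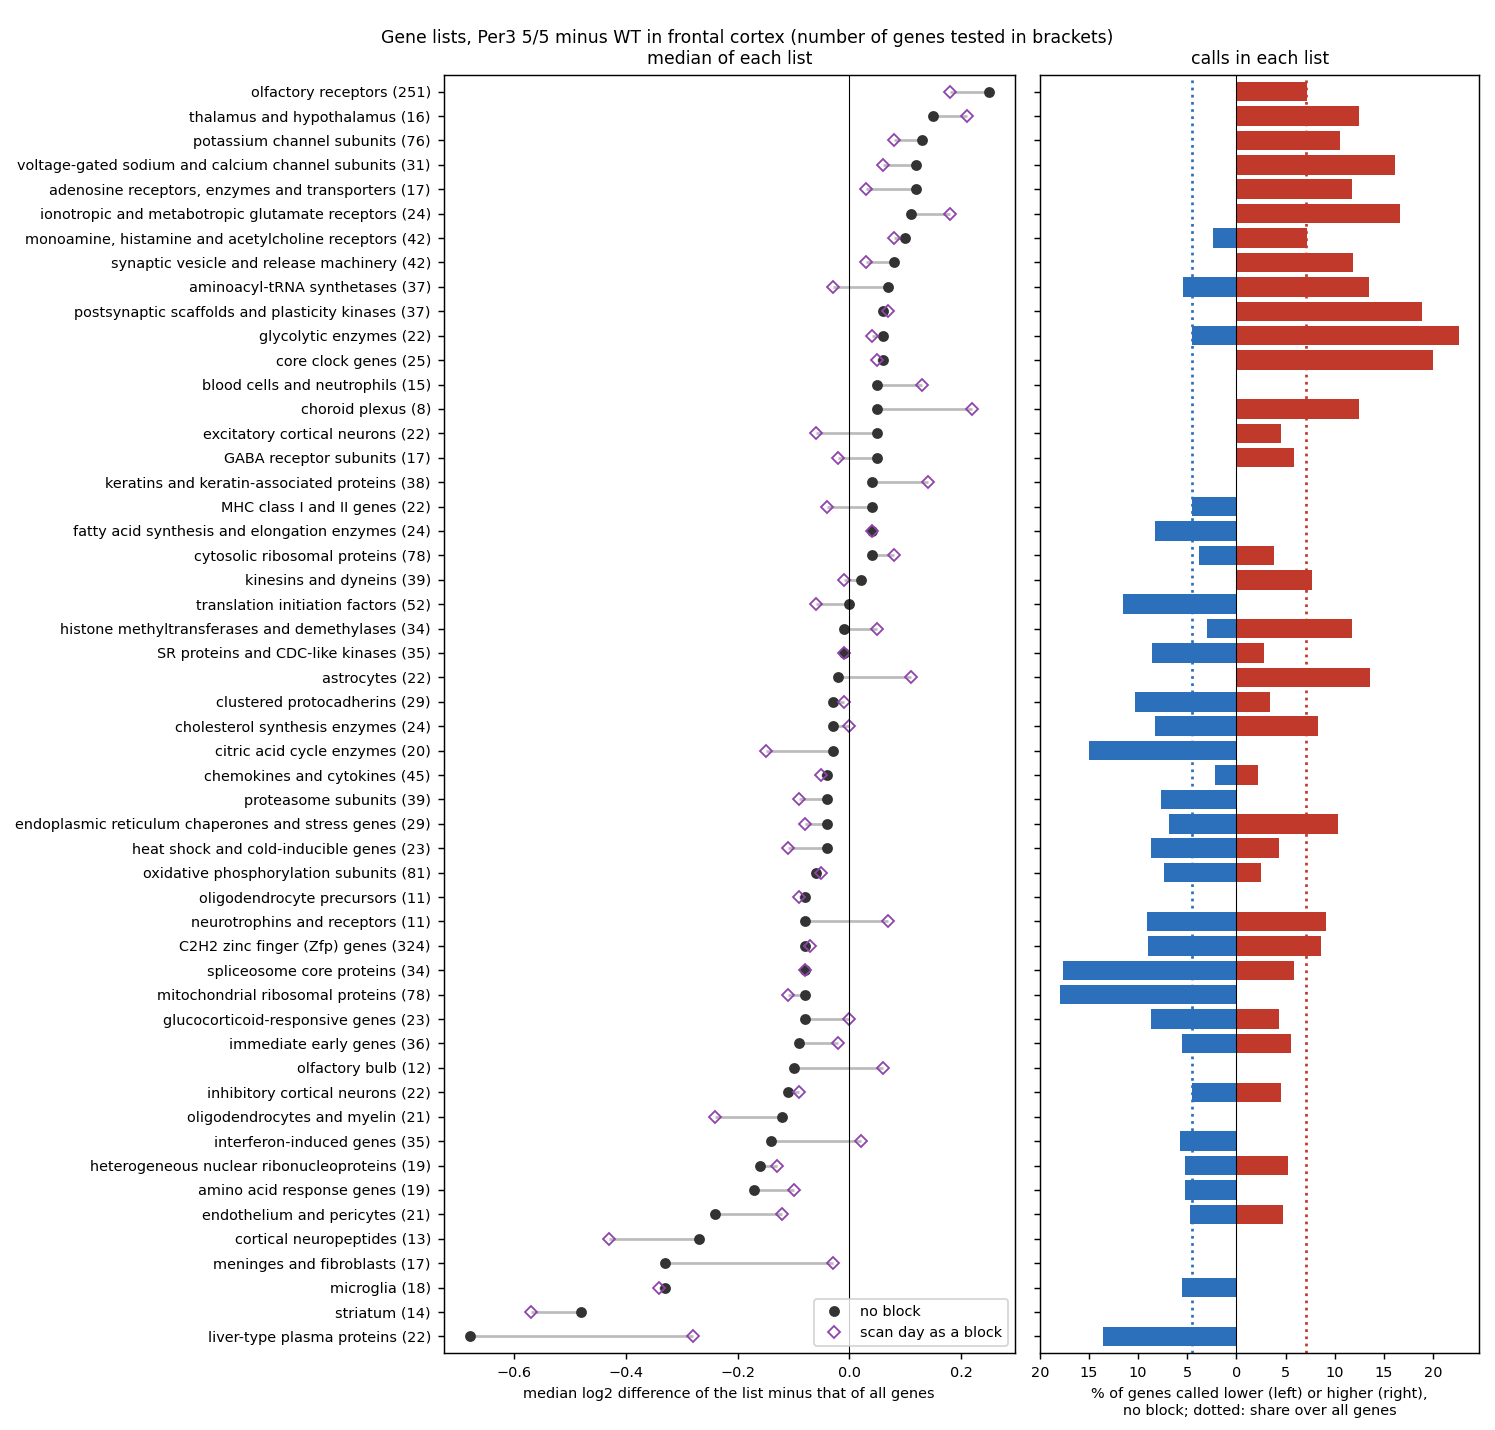
Left, the median log2 difference (Per3 5/5 minus WT) of each gene list minus that of all genes, without a block (filled) and with scan day as a block (open). Right, the percent of the genes of each list called lower (to the left) or higher (to the right) without a block, with dotted lines at 4.49% and 7.11% for all genes. The calls of channel and synaptic lists lie to the right and those of mitochondrial ribosomal proteins to the left.

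Mitochondrial ribosomal proteins, which translate the genes of mitochondrial DNA, were called in the other direction with all 16 arrays. Of 78 tested 14 were lower and 0 higher (17.9% against 4.49% of all genes). Their median lay 0.08 below that of all genes, 0.11 below with the block and on day 3, and 0.04 below after quantile normalization. Mrpl18 read 479, 543 and 651 in Per3 5/5 and 624, 734 and 767 in WT, a difference of -0.37 (limma's adjusted p = 0.00502, 0.0432 with the block), and 6 of 8 Per3 5/5 arrays lay below every WT array. Mrps22 read 228, 259 and 322 against 301, 338 and 366, a difference of -0.36 (limma's adjusted p = 0.0309) that was -0.22 with the block and was not called there. With the block 2 genes of the list were lower, Mrpl18 and Mrpl15, the latter named after its values were seen. Without the slide 2 arrays 18 were lower and 5 higher.

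Of 78 cytosolic ribosomal proteins, 3 were higher and 3 lower, with Rpl8 at 0.33 and Rpl22l1, a paralog, at -0.27. Ribosomal protein genes have many near-copies in the genome, which these probes may not tell apart. Of 52 translation initiation factors 6 were lower and 0 higher. Eif3e, a subunit of the factor that loads messenger RNA on the ribosome, read 527, 570 and 840 in Per3 5/5 and 728, 804 and 875 in WT, a difference of -0.39 (limma's adjusted p = 0.0134). Eif2s1, the subunit through which stress slows translation, differed by -0.42 (limma's adjusted p = 0.0345). With the block limma called 0 initiation factors, with 10 at an unadjusted p under 0.05, and without the slide 2 arrays 8 were lower and 8 higher.

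Aminoacyl-tRNA synthetases, which charge tRNAs, were called both ways, 5 of 37 higher and 2 lower. Aars2 and Tars2, both of mitochondria, differed by 0.37 and 0.35. The cytosolic Tars read 278, 331 and 360 in Per3 5/5 and 396, 418 and 456 in WT, with no overlap, and differed by -0.39 (limma's adjusted p = 0.00383, 0.0541 with the block).

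Among energy genes, 2 of 81 oxidative phosphorylation subunits were higher and 6 lower. The 2 higher ones, Cox6a1 and Cox8a of cytochrome c oxidase, were called with the block as well. After quantile normalization Cox8a differed by 0.25 and was called, and Cox6a1 differed by 0.05 and was not called (limma's adjusted p = 0.519). Cox8a read 15700, 17000 and 19600 in Per3 5/5 and 12300, 13200 and 15900 in WT, a difference of 0.36 (limma's adjusted p = 0.00386, 0.0314 with the block). Uqcrfs1, the iron-sulfur protein of complex III, differed by -0.33 (limma's adjusted p = 0.0374). Of 20 citric acid cycle enzymes 3 were lower and 0 higher. Dld, a subunit of several dehydrogenase complexes, was the one called with the block too (-0.35 and -0.40).

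Of 22 glycolytic genes 5 were higher and 1 lower. Pfkl, a phosphofructokinase, read 309, 460 and 626 in Per3 5/5 and 288, 333 and 356 in WT, a difference of 0.43 (limma's adjusted p = 0.025, 0.21 with the block and not called). Aldoa, an aldolase, differed by 0.32 with arrays scaled to the 75th percentile and by -0.07 after quantile normalization. Slc16a1, a lactate and ketone transporter, was lower by 0.25 (a log2 difference of -0.25, limma's adjusted p = 0.0446). Of 24 cholesterol synthesis genes 2 were higher and 2 lower, with Mvd at 0.42 and Idi1 at -0.33, and of 24 fatty acid genes 2 were lower, Acsl1, an acyl-CoA synthetase, at -0.29 with no overlap and Elovl7 at -0.29.

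Chaperones and stress genes were called in both directions. Of 23 heat shock and cold-inducible genes 1 was higher and 2 lower (4.35% and 8.7%, against 7.11% and 4.49% of all genes). Hspe1, the small subunit of the mitochondrial chaperonin, read 848, 1010 and 1120 in Per3 5/5 and 1120, 1260 and 1290 in WT, with no overlap and a difference of -0.31 (limma's adjusted p = 0.00652, 0.0481 with the block). Hsf1, the heat shock transcription factor, read 256, 312 and 334 against 217, 229 and 270, a difference of 0.39 (limma's adjusted p = 0.00487, 0.0839 with the block). Hspa4l, a nucleotide exchange factor of the HSP110 family, differed by -0.38.

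Of 29 endoplasmic reticulum genes 3 were higher and 2 lower (10.3% and 6.9%, against 7.11% and 4.49% of all genes). Pdia4, a disulfide isomerase, and Ern1, the stress sensor IRE1, differed by 0.43 and 0.36, while Herpud1 and Dnajb9, both of the degradation pathway of that compartment, differed by -0.34 and -0.26. Herpud1 read 389, 444 and 536 in Per3 5/5 and 510, 579 and 685 in WT, with 6 of 8 Per3 5/5 arrays below every WT array. Of 39 proteasome genes 3 were lower, among them Psma3 at -0.40. Psmb11, a thymus-type subunit, differed by -1.17 and by -0.26 with the block. Of 19 amino acid response genes 1 was lower, Psph, the last enzyme of serine synthesis, at -0.41 with no overlap.

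Immediate early genes, which neuronal activity induces, were called at shares close to those over all genes. Of 36 tested 2 were higher and 2 lower (5.56% each, against 7.11% and 4.49% of all genes). Egr3, a zinc finger factor, read 4.03, 4.90 and 6.80 in Per3 5/5 and 2.56, 3.81 and 4.77 in WT, a difference of 0.47 (limma's adjusted p = 0.0332). Dusp14, a phosphatase of the MAP kinase pathway, read 140, 397 and 478 against 476, 541 and 662, a difference of -0.76 (limma's adjusted p = 0.0186), and 7 of 8 Per3 5/5 arrays lay below every WT array. Ptgs2, the inducible cyclooxygenase, differed by -0.51. Of 23 glucocorticoid-responsive genes 1 was higher, Per1, and 2 were lower, Sgk1 at -0.42 and Crhbp. With the block limma called 0 immediate early genes, with 2 at an unadjusted p under 0.05.

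Among RNA-processing genes, those of the spliceosome core were called lower more often than higher. Of 34 spliceosome core genes 6 were lower and 2 higher (17.6% lower against 4.49% of all genes). Of 35 genes of the list of SR proteins and CDC-like kinases 3 were lower and 1 higher, and of 19 heterogeneous nuclear ribonucleoproteins 1 was lower and 1 higher. The medians of these lists relative to all genes were -0.08, -0.01 and -0.16, and -0.03, 0.03 and -0.11 after quantile normalization. With the block limma called 1 spliceosome gene lower and 0 genes of the other lists. Srsf3, a splicing factor of the SR family, read 52.6, 66.6 and 79.2 in Per3 5/5 and 80.4, 87.6 and 107 in WT, with no overlap and a difference of -0.46 (limma's adjusted p = 0.00658, 0.0933 with the block). Tra2b, an activator of exon inclusion, differed by -0.50, and Snrpd1, of the core of the small nuclear particles, by -0.44. The higher gene on the SR list was Meg3, a long non-coding RNA that is no SR protein, at 0.86. Lsm14a, one of the higher spliceosome entries, is an RNA granule protein that entered the list by its name.

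Of 324 C2H2 zinc finger genes 28 were higher and 29 lower (8.64% and 8.95%, against 7.11% and 4.49% of all genes). With the block 0 were higher and 1 lower. Zfp345 read 1.90, 7.88 and 14.1 in Per3 5/5 and 16, 17.1 and 20.5 in WT, with no overlap and a difference of -1.36 (limma's adjusted p = 0.013) that was -0.69 with the block. Zfp251 differed by 0.67. Many of these genes are close copies, and sharing of signal between their probes was not tested.

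Of 34 histone methyltransferases and demethylases 4 were higher and 1 lower, and 2 were higher with the block. Setd4, a methyltransferase, read 44.1, 51.7 and 56.2 in Per3 5/5 and 31.5, 34.6 and 43.8 in WT, with no overlap and a difference of 0.54 (limma's adjusted p = 0.00251, 0.0429 with the block). Kmt2b, which methylates histone H3 at active genes, read 95.6, 109 and 120 against 64.1, 76.5 and 94.0, also with no overlap, and differed by 0.47 (limma's adjusted p = 0.00251, 0.0472 with the block). Kdm4a, a demethylase, differed by -0.34 (limma's adjusted p = 0.0176, 0.0727 with the block).

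Markers of cortical cell types gave few calls. Of 22 excitatory neuron genes 1 was higher, Emx1, at 0.49, and of 22 inhibitory neuron genes 1 was higher, Nos1, at 0.34, and 1 lower, Crhbp. All 22 excitatory markers were well above background on all 16 arrays, and their summed level was 11100, 13600 and 16600 in Per3 5/5 and 13500, 14600 and 17000 in WT. Of 22 astrocyte genes 3 were higher, among them Gli1 and Aldoc, the latter named after its values were seen, and the summed level was 51900, 60900 and 66200 against 50100, 56700 and 68600. Limma called 0 of 21 oligodendrocyte, 11 precursor and 13 neuropeptide genes, with 2, 1 and 0 at an unadjusted p under 0.05.

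Microglial transcripts had a lower median with a wide spread. Of 18 genes 1 was lower, P2ry12, the ADP receptor of resting microglia, which read 41.8, 92.3 and 147 in Per3 5/5 and 107, 142 and 191 in WT (-0.77, limma's adjusted p = 0.0203, 0.16 with the block). The summed level of the list was 2680, 5080 and 8050 against 5380, 6330 and 7790, so that both the lowest and the highest values were Per3 5/5 arrays. The median of the list lay 0.33 below that of all genes and 0.08 below it without the slide 2 arrays. In endothelium and pericytes 1 of 21 genes was higher, Egfl7 at 0.34, and 1 lower, Itm2a at -0.62. Only 3 of the 21 lay above the median of all genes, and 10 had an unadjusted p under 0.05 in limma. The median of this list lay 0.24 below that of all genes, 0.12 below with the block and 0.05 below without the slide 2 arrays.

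Interferon and antigen presentation genes included few calls. Of 35 interferon-induced genes 2 were lower, Irgm1 and Ifih1. Irgm1, a GTPase of defence against microbes within cells, read 68.4, 74.3 and 80.1 in Per3 5/5 and 82.6, 89.2 and 94.7 in WT, with no overlap and a difference of -0.28 (limma's adjusted p = 0.00502, 0.0559 with the block). Ifih1, a sensor of double-stranded RNA, differed by -0.34. Of 22 MHC genes 1 was lower, H2-M3, at -0.47.

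Of 45 chemokine and cytokine genes 1 was higher and 1 lower. Il34, a ligand of the receptor that maintains microglia, read 615, 797 and 886 in Per3 5/5 and 531, 579 and 654 in WT, a difference of 0.41 (limma's adjusted p = 0.00423, 0.0529 with the block). Ccl21a, a chemokine for T cells and dendritic cells, read 12.5, 17.0 and 260 against 8.54, 246 and 492, a difference of -2.90 (limma's adjusted p = 0.0309, 0.148 with the block). Its values were split within each genotype, since Per3 5/5 replicate 2 read 260 and WT replicate 3 read 8.54. On day 3 the 4 Per3 5/5 arrays read 14.8 to 23.9 and the 3 WT arrays 188, 212 and 432, and the difference of -3.86 passed limma there (adjusted p = 0.0398). Ccl21a has near-identical copies in the mouse genome, which the probe may not tell apart.

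Markers of neighbouring tissue varied between arrays. Limma called 0 of 14 striatal genes, with a summed level of 2710, 3600 and 7800 in Per3 5/5 and 3690, 4970 and 18000 in WT. The striatal list had a median of -0.48 relative to all genes and -0.57 with the block, and the meningeal list one of -0.33 that was -0.03 with the block. The part of these markers in the other results was not tested. Limma also called 0 of 12 olfactory bulb, 15 blood and 17 meningeal genes. Without the block, of these 4 lists only the meningeal one held genes at an unadjusted p under 0.05, 4 in number. With the block the meningeal list held 0 such genes, the striatal list 3, the blood list 3 and the olfactory bulb list 1. Of 16 thalamic and hypothalamic genes 2 were higher, Hcrt at 0.64 and Oxt at 0.59, at levels of at most 36.0 and 36.1. The markers Gbx2, Nkx2-1, Otp and Sim1 of that list were not well above background. Of 22 liver-type plasma protein genes 3 were lower, with differences of -2.48 in Fabp1, -2.30 in Ahsg and -2.04 in Mup1, the last named after its values were seen. The median of the list relative to all genes was -0.68, -0.65 on day 3 and -0.28 with the block. Differences above the median of all genes were seen in 0 of the 22, and 11 had an unadjusted p under 0.05. Ahsg read 1.09, 2.40 and 8.60 in Per3 5/5 and 3.89, 13.2 and 46.7 in WT, and the groups overlapped. With the block limma called 0 genes of the liver list and 0 of the thalamic and hypothalamic list, with 1 and 2 at an unadjusted p under 0.05. The summed level of the liver list was 1120, 1690 and 1800 against 1760, 1860 and 2380, and Apoa1, Cyp2e1, Fga, Fgg, Kng1 and Ttr were not well above background.

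**Figure D4:**
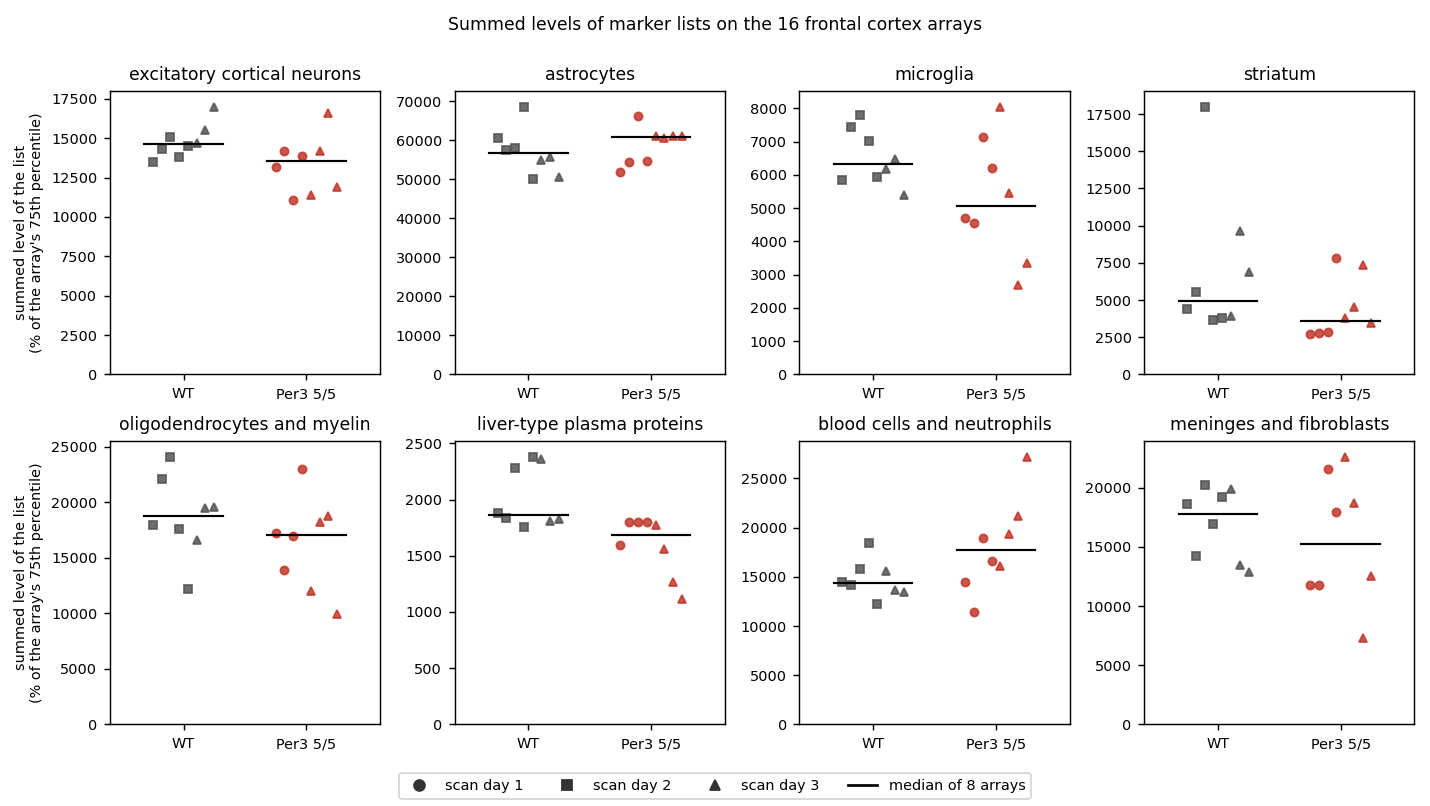
Summed level of 8 marker lists (percent of the 75th percentile of the array, linear axes from 0), 1 point per array by genotype, with the scan day as symbol and the median of 8 arrays as a line. The genotypes overlap in all 8 panels, and 1 WT array reaches 18000 in the striatal list.

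Olfactory receptor genes, whose proteins sense odours in the nose, were measured at the floor of the arrays. Of 892 on the array 251 were tested, at a median level of 3.06. Of these 18 were higher and 0 lower, a share close to that over all genes. Their median difference lay 0.25 above that of all genes, 0.18 with the block and 0.14 after quantile normalization, where the median over the dimmest of the 5 bins of probes was 0.19 before quantile normalization. Olfr703 read 1.34, 2.07 and 3.65 in Per3 5/5 and 0.562, 1.02 and 1.99 in WT, a difference of 1.03 (limma's adjusted p = 0.0109). With the block limma called 0 olfactory receptors, with 43 at an unadjusted p under 0.05. Of 8 choroid plexus genes 1 was higher, Folr1 at 0.43, and of 38 keratin genes limma called 0, with 5 at an unadjusted p under 0.05.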

How the data were processed

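Labelled RNA of each mouse and tissue was measured in 1 colour on Agilent mouse arrays of 41174 probes. The deposited scanner files give, per the file headers, a linear intensity for each spot after subtraction of background and spatial detrending. The authors also deposited a table of log2 values, shifted in GeneSpring to the 75th percentile and centred on each probe, which served here only as an alternative.

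Spot signals were taken to log2 and scaled by subtracting the log2 75th percentile of the array. Outlier spots (57 to 129 per cortex array) were dropped before repeat spots were averaged. Probes entered the tests if 6 or more of the 8 arrays of a genotype were well above background. Accessions on the array matched a RefSeq symbol for 27668 probes (67.2%). All 24 cortex arrays, with 3 genotype means, were fitted with limma 3.58.1 in R 4.3.3, two-sided, with Benjamini-Hochberg adjustment over all probes and calls at an adjusted p under 0.05. The fit was tested on simulated data.

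Named genes were Per3, the 12 genes per direction with the largest difference among those called without and with scan day as a block, and at most 2 called genes per direction of each list, or, in a list without calls, the 2 brightest. The comparison, rule and 54 lists were chosen with earlier results of these data known. The list of canonical histones matched 0 symbols and was left out. Alternatives concerned scan day, slide, replicate number, scaling, background, filter, source of values, test and the slide 2 arrays, the last chosen after seeing the data. Results on a few genes are not reported here.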

Additional observations from a re-analysis of the deposited data

Results flagged for a closer look

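Of 285 sets of 8 arrays checked for a lone array far from the others, 18 held one, and chance gives about 1 in 20. In WT these levels were 3.16 for the dimmer Cry2 probe in replicate 3, 316 for Prss23 in replicate 3, 8.54 for Ccl21a in replicate 3, 270 for Hsf1 in replicate 6, 535 for Itm2a in replicate 6, 43.8 for Setd4 in replicate 1, 106 for Mvd in replicate 2, 1.01 for Grik3 and 0.658 for Gli1 in replicate 4, and 2900 for Mbp in replicate 5. In Per3 5/5 they were 16 for Huwe1, 36.0 for Hcrt and 36.1 for Oxt in replicate 7, 90.7 for Ptgs2 and 1630 for Sst in replicate 8, 260 for Ccl21a and 9.33 for Folr1 in replicate 2, and 0.773 for Olfr617 in replicate 3. Replicates 7 and 8 are the arrays of slide 2.

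The genotype difference itself differed between cortex and hypothalamus at 14 probes (limma's interaction term, with 2225 probes at an unadjusted p under 0.05). In all 14 it was more positive in cortex, and 4 of the 14 were among the probes tested in cortex. The difference between the tissues was 1.93 for Nr0b1, a nuclear receptor of the hypothalamus, with -1.21 in hypothalamus, and 1.68 for Six6, a homeobox factor, with -0.97 in hypothalamus. Neither gene was above the filter in cortex.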

How the results depend on the processing

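The direction of all 24 genes with the largest differences was the same in the 14 alternative settings run on single genes. These settings refit the arrays that chose the genes, or some of them, so the shared direction is a description only. Their calls remained in all 24 with scan day as a block (by the naming rule), after median centring, with the stricter filter and with the authors' table, and in 21 to 23 in the other settings except 3 in which 0 remained (day 3 only, slide as a fixed block, replicate block). The number of probes called was 3671 and became 293 with scan day as a block, 1 on day 3 alone, 0 with slide as a fixed block (4963 at an unadjusted p under 0.05), 9267 after normexp background correction and 7570 without the slide 2 arrays. Same-numbered mice shared only a number (correlation of their deviations -0.42 to 0.255), and with the replicate block limma called 0 probes (7789 at an unadjusted p under 0.05). The Per3 difference was 0.54 with scan day as a block, 0.69 on day 3 (0.69 also in the exact permutation test), 1.05 with slide as a fixed block and 0.69 with the replicate block, and passed in none of these. Array brightness differed by -435 intensity units on day 3 (exact permutation p = 0.0571, the smallest that subset allows). The sign turned for Aldoa after quantile normalization (-0.07) and, with slide as a fixed block, for Elovl7 (0.18), Chrnb2 (0.05) and Ccl21a (0.33), and the cause was not tested. With slide fixed, the fit rests on the Per3 4/4 arrays that shared slides with either genotype. Low signal limits the dim probes, where the median difference moved with the scaling.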
